A study of Homo sapiens with 2 samples.

Results

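The 10 genes described here encode the enzymes that remove superoxide and hydrogen peroxide: the 6 peroxiredoxins PRDX1 to PRDX6, the superoxide dismutases SOD1 and SOD2, catalase (CAT) and the lipid peroxide reductase GPX4. They were chosen by symbol among protein-coding genes, and the rule found 10 genes in 11 rows of 58735 genes, because SOD2 has a second identifier. The exposed library came from cells of the SH-SY5Y line treated for 24 h with TDCPP, the flame retardant tris(1,3-dichloro-2-propyl) phosphate, together with titanium dioxide (TiO2) nanoparticles. The control library came from cells of the same line labelled as control, and both were grown in DMEM with fetal bovine serum. Neither a dose nor a library of a single agent is among the samples analysed here, and the treatment label reads the same for both libraries, so the title and the genotype label set them apart. Each group has 1 library, so differences have no replicate check and all intervals cover counting error only.

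Superoxide leaking from respiration and oxidases is converted to hydrogen peroxide by superoxide dismutases, and peroxiredoxins, catalase and glutathione peroxidases reduce the peroxide. A peroxiredoxin attacks peroxide with a cysteine thiol and is returned to its reduced form mainly by thioredoxin. GPX4 uses a selenocysteine and glutathione and reduces lipid peroxides in membranes, the lipids whose oxidation drives ferroptosis. Each compartment holds its own set: PRDX1, PRDX2, PRDX6 and most SOD1 in the cytosol, PRDX3 and SOD2 in the mitochondrial matrix, PRDX4 in the endoplasmic reticulum (ER) and catalase in peroxisomes. PRDX5 and GPX4 are made in several forms, with PRDX5 in mitochondria, peroxisomes and cytosol and GPX4 in mitochondria, nucleus and cytosol. Both are placed with the mitochondrial genes below.

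The catalytic site shows the chemistry of these enzymes and how far the genes differ in sequence. The stretches below are coding sequence of GENCODE 29 transcripts, 5′ to 3′, with the codon of the catalytic residue in capitals. PRDX2, PRDX3 and PRDX4 have closely related sites around a cysteine codon, PRDX5 has an unlike site around its cysteine codon, and GPX4 has the codon TGA, read there as selenocysteine instead of stop.
PRDX2: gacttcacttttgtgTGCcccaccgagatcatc
PRDX3: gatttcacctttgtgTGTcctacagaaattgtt
PRDX4: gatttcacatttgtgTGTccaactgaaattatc
PRDX5: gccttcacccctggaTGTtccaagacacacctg
GPX4: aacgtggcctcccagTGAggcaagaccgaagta
These are codons 51 of 198 in PRDX2, 108 of 256 in PRDX3, 124 of 271 in PRDX4, 100 of 214 in PRDX5 and 73 of 197 in GPX4, counted from the start codon of the transcript used. On GRCh38 the PRDX2 stretch lies at chr19:12801005-12801037 on the minus strand and the GPX4 stretch at chr19:1105388-1105420 on the plus strand, while those of PRDX3 (chr10:119173845-119174455, minus), PRDX4 (chrX:23671642-23675017, plus) and PRDX5 (chr11:64319845-64320669, plus) cross an intron. Over the whole aligned coding sequence PRDX2 and PRDX4 were 66.6% identical and PRDX4 and PRDX5 59.5% identical, the highest and lowest of the 6 pairs of these 4 genes. The longest identical run in any of these alignments was 14 bases and no pair shared a stretch of 50 bases.

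The libraries held 15315572 reads on annotated genes in the exposed and 16471438 in the control library, recovered from the deposited FPKM values (fragments per kilobase of the listed length, relative to sequencing depth). Levels are given in FPKM, and differences as the log2 ratio, log2 of (exposed FPKM + 1) over (control FPKM + 1), which understates differences of genes with low values, or as the read ratio without the added 1. A gene was called measured when it was protein-coding and averaged at least 1 FPKM, which left 11409 genes, whose median log2 ratio was -0.05. Of 20 noradrenergic neuroblastoma and neuronal genes, 7 were measured, and their summed level over all 20 was 315 FPKM in the exposed and 305 FPKM in the control library, most of it from UCHL1, at 237 and 201 FPKM, and NEFL, at 55.5 and 74.0 FPKM. Of the 7, UCHL1 was higher and 6 were below the median of all measured genes, with a median log2 ratio of -0.34 over the 7. Among them are the transcription factors GATA2, with 494 reads in the exposed and 835 in the control library and a ratio of 0.600 (0.536 to 0.672), GATA3, with 254 and 320 reads, HAND1, with 187 and 248, ISL1, with 57 and 99, and HAND2, with 52 and 65. Other defining markers of the labelled line were at or near 0: PHOX2A, TH, STMN2, ELAVL4 and INA had 0 reads in both libraries, which allows up to 0.196 RPM (reads scaled by library size) in the exposed and 0.182 RPM in the control library, and DBH, CHGA, CHGB and TUBB3 had at most 10 reads in either. In bulk samples, fewer cells of a type and less RNA per cell cannot be told apart.

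The comparison asks how genes of peroxide and superoxide removal differed after exposure to the mixture, in a series whose title names apoptosis and mitochondrial dynamics. Of the 10 genes, 9 were lower and PRDX5 alone was higher in the exposed than in the control library. Measured genes also leaned lower, with a median log2 ratio of -0.05, and the same 9 genes lay below that median. Differences were modest, with a median log2 ratio of -0.33 over the 10 genes and a range of -0.52 to 0.59. The 7 measured markers of the labelled line had a similar median of -0.34, and their part in this result was not tested. Past a fixed size of 1.5-fold, 1 of the 10 was higher, against 2.53% of all measured genes, and none was lower, against 2.16%. At a smaller size, a log2 ratio of 0.32 in either direction, 1 was higher and 6 were lower, against 8.98% and 13.5% of measured genes, and 14.7% lower among the 4941 of them with at least 1577 reads in both libraries together, the number of PRDX5, the member with the fewest. At 2-fold none was past the size in either direction, against 0.657% of measured genes higher and 0.131% lower. The 95% counting interval of the read ratio lay below 1 for 9 of the 10 genes, against 36% of measured genes and 50.6% of the 4941 measured genes with at least as many reads as PRDX5. It lay above 1 for PRDX5, against 21.5% and 20.5% of those genes. The 4941 genes leaned further lower than all measured genes, with a median log2 ratio of -0.098. Their floor is the read number of PRDX5, and the other members had more reads. Whether 9 lower of 10 exceeds the share among genes at the levels of these members was not tested.

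**Figure D1:**
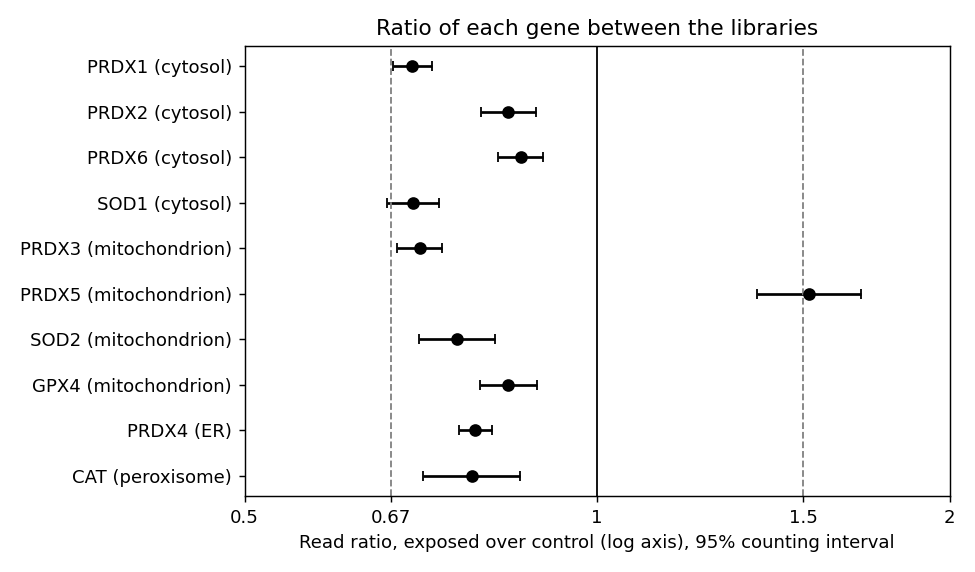
Read ratio of each gene, exposed over control, on a log axis, with bars for the exact 95% counting interval; the solid line marks no difference and the dashed lines 1.5-fold in either direction. 9 intervals lie wholly left of 1, and PRDX5 lies right of it at 1.52.

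PRDX1, an abundant cytosolic peroxiredoxin of the typical 2-Cys type (ENSG00000117450, chr1:45511036-45523047), stood at 189 FPKM in the exposed and 271 FPKM in the control library, from 4527 and 6603 reads. Its read ratio of 0.695 (95% counting interval 0.670 to 0.722) and log2 ratio of -0.52 were the lowest of the 10 genes, and 3.38% of measured genes had a log2 ratio as low or lower. PRDX2, its closest cytosolic relative, had 72.6 FPKM in the exposed and 86.4 FPKM in the control library, a ratio of 0.840 (0.795 to 0.887). PRDX6, which has a single catalytic cysteine, reduces phospholipid peroxides and also has phospholipase activity, had 96.7 FPKM in exposed and 112 FPKM in control cells, a ratio of 0.860 (0.823 to 0.899), the difference nearest to 0 among the 10 genes.

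The cytosolic peroxiredoxins thus differed in size though not in direction. Within each library, where scaling between libraries cancels, the FPKM of PRDX1 was 2.60 times that of PRDX2 in exposed and 3.14 times in control cells. The ratio of these values was 0.828 (0.775 to 0.884, a normal-approximation 95% interval from the reads on the log scale, as are all intervals of such ratios below). PRDX6 stood at 0.513 of the PRDX1 level in exposed and 0.415 in control cells, a ratio of 1.24 (1.17 to 1.31).

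SOD1, the copper-zinc dismutase of the cytosol and the mitochondrial intermembrane space (ENSG00000142168, chr21:31659622-31668931), was at 78.6 FPKM in the exposed and 113 FPKM in the control library, a ratio of 0.697 (0.662 to 0.733). The manganese dismutase of the matrix, SOD2 (ENSG00000112096, chr6:159669057-159745186), was at 4.68 and 6.16 FPKM in exposed and control cells, a ratio of 0.760 (0.705 to 0.819). The interval of the ratio between the SOD1 and SOD2 differences, 0.917 (0.838 to 1.004), contained 1, so at this depth the dismutases were not distinguishable in how far they were lower. The second SOD2 identifier (ENSG00000285441) had 0 reads in the exposed and 2 in the control library and did not reach a mean of 1 FPKM.

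The level of SOD2 depends on the length used for the gene. The deposited length is 16493 bases, all exons merged, whereas the protein-coding transcripts of SOD2 in GENCODE 29 have a median length of 866 bases and range between 507 and 14266. With 1216 reads in the exposed and 1624 in the control library, SOD2 had more reads than CAT, with 768 and 997, yet a lower FPKM. At the median transcript length SOD2 stood at 89.0 and 117 FPKM in exposed and control cells, and moved above CAT, to place 9 of 10 in the exposed and 8 of 10 in the control library. These values place all reads on a transcript of that length, and reads were not assigned to transcripts, so the level itself stays uncertain. For the other 9 genes the deposited length was 1.35 to 2.50 times the median transcript length.

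PRDX3, the peroxiredoxin of the mitochondrial matrix (ENSG00000165672, chr10:119167703-119178833), had 60.7 FPKM in the exposed and 86.1 FPKM in the control library, a ratio of 0.705 (0.674 to 0.738) and a log2 ratio of -0.50. PRDX5, an atypical 2-Cys peroxiredoxin that also reduces peroxynitrite (ENSG00000126432, chr11:64318088-64321811), had 67.1 FPKM in the exposed and 44.2 FPKM in the control library, from 945 and 632 reads. Its read ratio was 1.52 (1.37 to 1.68), and 2.44% of measured genes had a log2 ratio as high or higher. Its log2 ratio of 0.59 lay just past 1.5-fold, which is 0.585 on that scale, and the interval reached below 1.5. GPX4 (ENSG00000167468, chr19:1103926-1106791) had 70.1 FPKM in the exposed and 83.5 FPKM in the control library, a ratio of 0.840 (0.794 to 0.889).

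Between the mitochondrial peroxiredoxins the balance differed. PRDX5 stood at 1.11 times the FPKM of PRDX3 in exposed cells and 0.514 times in control cells, a ratio of 2.15 (1.93 to 2.40) that depends neither on the scaling between libraries nor on gene length. Which of them had the higher level did depend on length: at the median transcript length PRDX5 stood at 101 FPKM and PRDX3 at 130 FPKM in exposed cells, and at 66.3 and 185 FPKM in control cells. Against PRDX1 the ratio was 2.18 (1.96 to 2.43), against SOD2 1.997 (1.76 to 2.26) and against GPX4 1.81 (1.61 to 2.03). In all 9 pairs of PRDX5 with another of the 10 genes this interval excluded 1, as it did in 20 of the 36 pairs without PRDX5. Summed over PRDX3, PRDX5, SOD2 and GPX4, the level was 203 FPKM in the exposed and 219.9 FPKM in the control library. The ratio of their summed reads was lower, at 0.805 (0.781 to 0.830). Gene length weighs on the FPKM sum, to which SOD2 adds little.

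PRDX4, a peroxiredoxin of the ER that passes oxidising equivalents to protein disulfide isomerases (ENSG00000123131, chrX:23664262-23686399), had 210 FPKM in the exposed and 267 FPKM in the control library, a ratio of 0.787 (0.762 to 0.814). PRDX4 had the highest level of the 10 genes in the exposed library, at 1.12 times PRDX1, whereas in the control library it stood at 0.985 of PRDX1, with overlapping counting intervals of 261 to 273 FPKM for PRDX4 and 265 to 278 FPKM for PRDX1. At the median transcript length PRDX4 was highest in both libraries, at 480 FPKM in exposed and 610 FPKM in control cells. CAT, which splits hydrogen peroxide without a reducing partner (ENSG00000121691, chr11:34438925-34472062), had 13.6 FPKM in the exposed and 17.4 FPKM in the control library, a ratio of 0.781 (0.710 to 0.859).

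**Figure D2:**
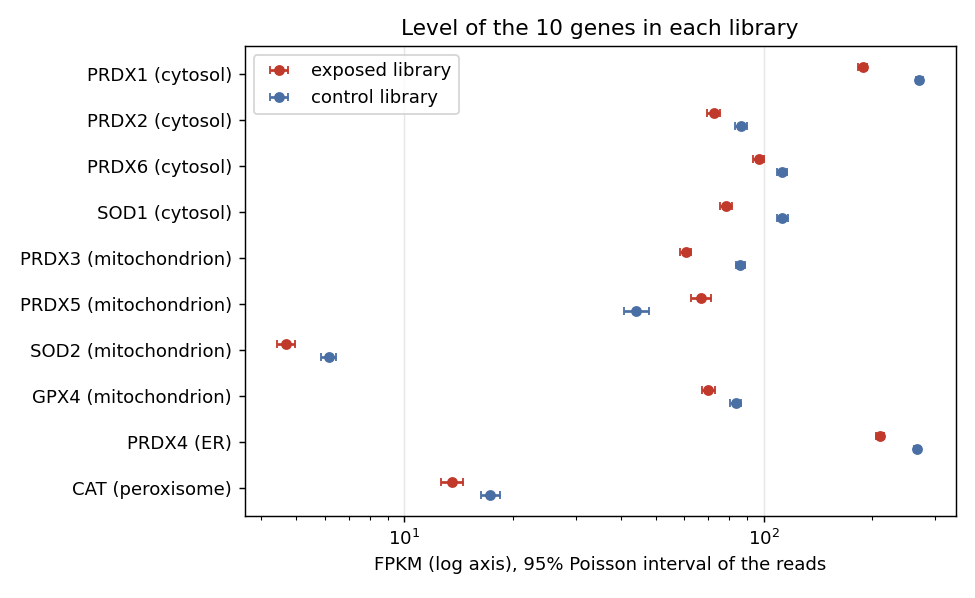
FPKM of each gene in the exposed (red) and control (blue) library on a log axis, by compartment, with bars for the exact 95% Poisson interval of the reads. The exposed point lies left of the control point for 9 genes and right of it for PRDX5, at 67.1 against 44.2 FPKM.

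In order of the read ratio, lowest first, the genes were PRDX1, SOD1, PRDX3, SOD2, CAT, PRDX4, GPX4, PRDX2, PRDX6 and PRDX5. Of the 9 neighbouring pairs in this order, PRDX6 and PRDX5 alone differed beyond counting error. No break between neighbours thus divided the 9 lower genes in this order, yet genes further apart did differ. Each of PRDX1, SOD1 and PRDX3 differed beyond counting error from each of PRDX4, GPX4, PRDX2 and PRDX6. SOD2 and CAT, which have the fewest reads of the 9, stand between these genes. In order of the log2 ratio, PRDX3 and PRDX4 were neighbours, and the ratio between their differences was 0.896 (0.848 to 0.947).

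**Figure D3:**
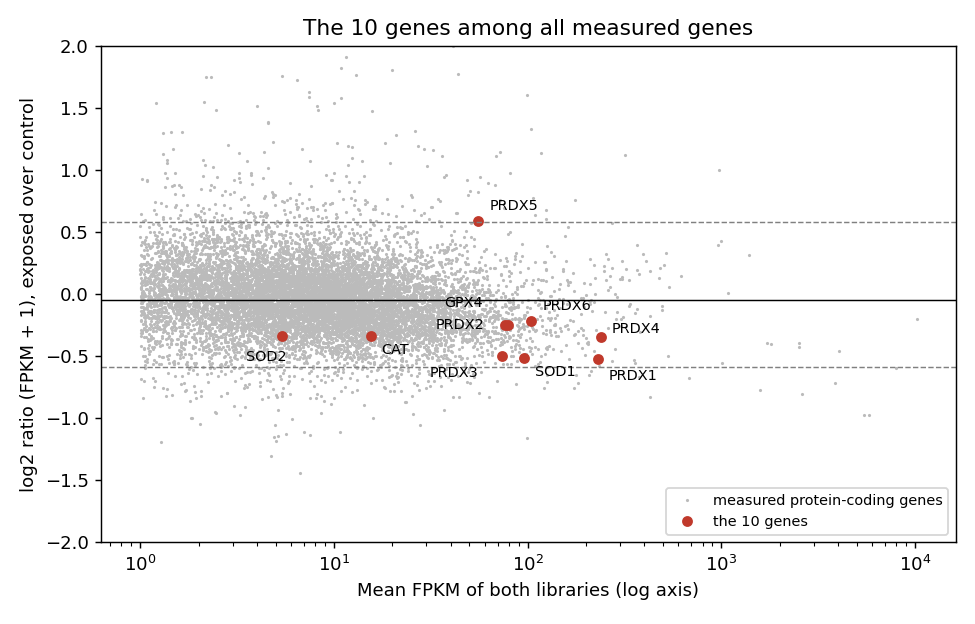
Log2 ratio of FPKM + 1, exposed over control, against mean FPKM on a log axis for the 11409 measured genes (grey; 13 lie beyond the drawn range of 2 in either direction) and the 10 genes (red). The solid line is the median of all genes at -0.05 and the dashed lines mark 1.5-fold; 9 of the 10 genes lie below the median, inside the lower dashed line.

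The summed level of the 6 peroxiredoxins was 696 FPKM in the exposed and 867 FPKM in the control library, a ratio of their reads of 0.785 (0.771 to 0.799). PRDX1 and PRDX4 together made up most of it in both libraries. The share of PRDX5 was 9.64% in exposed and 5.10% in control cells, and that of PRDX1 27.1% and 31.3%. PRDX6 held 13.9% in exposed and 13.0% in control cells, and PRDX2, PRDX3 and PRDX4 each moved by at most 1.20 percentage points. These shares depend on the deposited gene lengths. Among the 6 genes these were between 1.35 (PRDX6) and 2.36 (PRDX2) times the median transcript length. All 10 genes together stood at 863 FPKM in the exposed and 1087 FPKM in the control library.

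**Figure D4:**
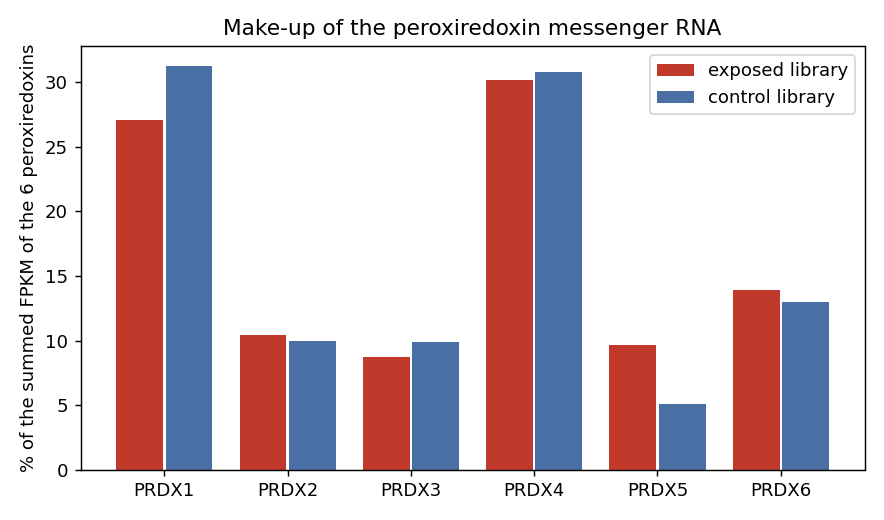
Share of each peroxiredoxin in the summed FPKM of the 6, at the deposited gene lengths, in percent, for the exposed (red) and control (blue) library. The PRDX5 bar stands at 9.64% in the exposed and 5.10% in the control library, and the PRDX1 bar at 27.1% and 31.3%.

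Reads of neighbouring genes and copies touch some of these values. PRDX1 shares 379 of its 1522 exon bases with MMACHC, a cobalamin-processing gene on the opposite strand, which had 249 reads in the exposed and 401 in the control library and a log2 ratio of -0.53, and the strand setting of the counts is not given in the sources used here. PRDX2 shares 296 of 2093 exon bases with an antisense gene that had 0 reads in both libraries. PRDX2 also lies within the span of HOOK2, on the same strand, and shares no exon base with it. SOD2 shares 298 exon bases with WTAP on the opposite strand, a gene with 1736 reads in the exposed and 1899 in the control library. The table lists 14 pseudogenes of the 10 genes, and 4 of them, of PRDX2 and PRDX3, held 36 reads in the exposed and 24 in the control library, at most 0.672% of the reads of the parent gene.

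Promoter windows of RefSeq, with 250 bases before and 50 after a transcript start on GRCh38.p14, were at hand for PRDX2, PRDX3, PRDX4, PRDX5, SOD2, CAT and GPX4, 13 windows in all, and those of PRDX1, PRDX6 and SOD1 were not used here. Those of PRDX5, the gene that was higher, and of GPX4 and CAT, which were lower, are shown on the strand of the gene, with each match to the core of the motif of nuclear respiratory factor 1, NRF1 (TGCGCA), and to the CCAAT box (CCAAT), on either strand, in capitals.
PRDX5: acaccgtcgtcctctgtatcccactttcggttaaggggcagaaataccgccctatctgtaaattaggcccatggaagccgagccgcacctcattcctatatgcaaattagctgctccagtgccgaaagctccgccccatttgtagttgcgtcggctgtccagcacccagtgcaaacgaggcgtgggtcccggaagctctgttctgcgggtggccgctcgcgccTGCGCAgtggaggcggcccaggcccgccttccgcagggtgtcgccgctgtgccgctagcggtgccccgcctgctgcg
GPX4: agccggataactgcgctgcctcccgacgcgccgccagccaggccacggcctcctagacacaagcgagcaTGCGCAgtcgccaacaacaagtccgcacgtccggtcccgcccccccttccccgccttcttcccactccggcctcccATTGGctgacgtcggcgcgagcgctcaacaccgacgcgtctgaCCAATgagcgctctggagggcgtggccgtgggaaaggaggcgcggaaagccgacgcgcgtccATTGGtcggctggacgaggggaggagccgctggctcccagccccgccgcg
CAT: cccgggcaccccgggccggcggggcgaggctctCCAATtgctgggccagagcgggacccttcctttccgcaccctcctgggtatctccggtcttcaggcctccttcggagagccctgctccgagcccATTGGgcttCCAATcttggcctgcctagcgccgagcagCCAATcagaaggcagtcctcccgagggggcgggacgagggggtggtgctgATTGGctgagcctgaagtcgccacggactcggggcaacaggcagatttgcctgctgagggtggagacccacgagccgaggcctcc
The windows lie at chr11:64317871-64318170, chr19:1103744-1104043 and chr11:34438684-34438983, all on the plus strand. TGCGCA, which reads the same on both strands, stood in both PRDX5 windows, in 2 of 3 GPX4 windows and in 1 of 4 SOD2 windows, and in 8.24% of all 35116 windows of the table. It was thus present in a gene that was higher and in genes that were lower. CCAAT occurred 5 times in the CAT window and 3 times in the GPX4 window shown, in 2 of 4 SOD2 windows, in neither PRDX5 window, and in 34.6% of all windows. In the windows shown no match of one motif overlapped a match of the other. The core of the NRF2 antioxidant response element (TGACNNNGC, in 13.3% of all windows), the C/EBP-ATF composite element (TGATGNAA, in 3.62%) and the TATA box (TATAAA, in 11.5%) were searched on both strands and had no match in the 13 windows. A match or its lack describes the letters of these windows only.

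The genes that supply and renew these enzymes were mostly within 1.5-fold. In 10 related lists of 95 genes, 83 were measured, 6 were at least 1.5-fold higher, against 2.53% of all measured genes, and 1 was at least 1.5-fold lower, against 2.16%. Of the 10 measured genes of the thioredoxin system, which returns peroxiredoxins to the reduced form, 1 was higher, none was lower and the median log2 ratio was -0.09. Across the 10 lists, 19 of the 83 measured genes took the opposite sign in at least 1 of 4 other scalings, all with a reported log2 ratio that rounds to a value between -0.11 and 0, among them TXN2, TXNRD1, TXNRD2, ERO1A and CYBA named below. The thioredoxin gene that was higher was TXNIP, the inhibitor of thioredoxin, with 10.5 FPKM in the exposed and 4.48 FPKM in the control library, a read ratio of 2.35 (2.03 to 2.73). Thioredoxin itself, TXN, had 278 FPKM in exposed and 332 FPKM in control cells, a ratio of 0.837 (0.807 to 0.870). Its mitochondrial counterpart TXN2 stood at 29.8 and 31.6 FPKM, and the reductases TXNRD1 and TXNRD2 at log2 ratios of -0.04 and -0.03, with counting intervals that contained a ratio of 1. SRXN1, the sulfiredoxin that restores overoxidised peroxiredoxins, had 63 reads in the exposed and 71 in the control library, a ratio of 0.900 (0.631 to 1.28). TXNDC17 and NXN, a thioredoxin-like protein and nucleoredoxin, had log2 ratios of -0.39 and -0.14.

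In the selenoprotein synthesis list, on which GPX4 depends, 1 of 7 measured genes was higher, none was lower and the median log2 ratio was 0.19. SEPHS2, which makes the selenium donor and is itself a selenoprotein, had 99.7 FPKM in the exposed and 44.5 FPKM in the control library, a ratio of 2.24 (2.12 to 2.37). SEPSECS and SECISBP2, which act in making and inserting selenocysteine, had log2 ratios of 0.26 and 0.25, and TRNAU1AP -0.27. Among other glutathione peroxidases and SOD3, 3 protein-coding genes were measured, and the secreted GPX3 was the 1 at least 1.5-fold lower, at 6.01 and 9.62 FPKM in exposed and control cells, while the ER enzyme GPX8 stood at 0.08 and the secreted dismutase SOD3 at 0.03. The cytosolic and mitochondrial enzyme gene GPX1, annotated as a polymorphic pseudogene in the table and so outside the measured genes, had 50.4 FPKM in exposed and 59.4 FPKM in control cells, a ratio of 0.849 (0.784 to 0.919).

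Of 9 genes of glutathione supply and glutaredoxins, 1 was higher, none was lower and the median was 0.02. SLC7A11, which imports the cystine used for glutathione, had 20.7 FPKM in the exposed and 5.38 FPKM in the control library, a ratio of 3.86 (3.57 to 4.17). The glutathione reductase GSR, at -0.17, the synthesis enzyme GCLC, at -0.15, and the glutaredoxin GLRX, at -0.24, were all within 1.5-fold. The 10 NADPH-supplying genes had a median of -0.02 and none reached 1.5-fold, with PGLS at 0.42, IDH1 at 0.38 and TALDO1 at -0.32. The 6 genes of metal delivery and maturation had a median of -0.001 and none reached 1.5-fold. CCS, the copper chaperone of SOD1, had 7.41 FPKM in the exposed and 5.31 FPKM in the control library, a ratio of 1.40 (1.16 to 1.68), opposite in direction to SOD1. The copper importer SLC31A1 stood at 0.23, the copper chaperone ATOX1 at -0.26 and the iron exporter SLC40A1 at -0.34.

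**Figure D5:**
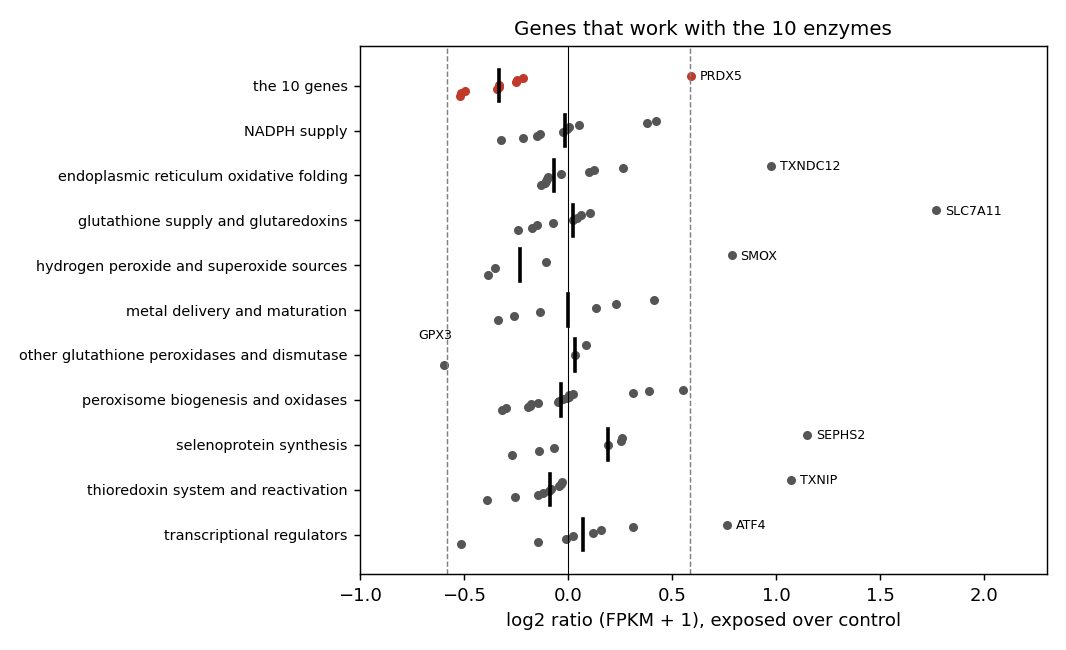
Log2 ratio of FPKM + 1, exposed over control, for each measured gene of the 10 described (red) and of the 10 related lists (grey); vertical bars are medians, dashed lines mark 1.5-fold, and genes past it are named. The 10 genes have a median of -0.33, and the medians of the related lists lie between -0.23 and 0.19.

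In the ER, where PRDX4 works beside the oxidases ERO1A and ERO1B, 1 of 10 oxidative folding genes was higher, none was lower and the median was -0.07. ERO1A had 12.2 FPKM in exposed and 13.1 FPKM in control cells and ERO1B 8.78 and 7.15 FPKM, while the disulfide isomerase gene P4HB stood at a log2 ratio of 0.12 and TXNDC5 at -0.13. TXNDC12, an ER thioredoxin-like protein, was higher, with 320 reads in the exposed and 135 in the control library. Of 16 genes of peroxisome biogenesis and oxidases, the surroundings of catalase, none reached 1.5-fold and the median was -0.04. PEX16 stood at 0.39, PEX10 at 0.31 and PEX7 at -0.32.

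Most enzymes that produce superoxide or peroxide were at low level, and 4 of 12 were measured, with 1 higher, none lower and a median of -0.23. The spermine oxidase SMOX, which releases hydrogen peroxide, had 6.39 FPKM in the exposed and 3.29 FPKM in the control library, a ratio of 1.94 (1.60 to 2.38). PAOX and MAOA stood at -0.39 and -0.35, and CYBA, a subunit of NADPH oxidases, at -0.11. Of 8 measured transcriptional regulators 1 was higher, none was lower and the median was 0.07. That was ATF4, at 221 FPKM in the exposed and 130 FPKM in the control library. NFE2L2, which encodes NRF2, had 11.7 FPKM in exposed and 9.24 FPKM in control cells, a ratio of 1.27 (1.16 to 1.39), FOXO1 a log2 ratio of -0.51, and BACH1, a repressor of NRF2 target genes, 0.16.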

How the data were processed

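RNA sequencing of 1 exposed and 1 control library was analysed. The authors deposited 1 FPKM value per gene and library; an RNeasy kit for total RNA and a SMARTER kit for the libraries are named per the labels' protocols. No aligner or counter is named (not given in the sources used here). Per the submitters' processing notes the builds are GRCm38 and mm10, whereas all 58735 identifiers in the file are human and were found in GENCODE 29 (GRCh38), 58724 with the same start and end. Multiplying FPKM by the listed length gave whole multiples of 1 step for 100% of values above 0, to within 0.001 reads, and so the reads.

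Libraries were taken as the authors scaled them. Ratios carry exact conditional binomial 95% intervals, levels Poisson ones, and PCR copies were not removed by molecular identifiers. With 1 library per group there is no test and no p-value; size was read at 1.5-fold with a pseudocount of 1. The members and lists were chosen with earlier results of these data known. Named were all 10 members and, of each related list, up to 4 measured genes with the largest absolute log2 ratio plus TXN, TXN2, TXNRD1, TXNRD2, SRXN1, GPX1, CCS, GSR, ERO1A and NFE2L2; some genes this names are not reported here. Alternatives were other pseudocounts, scalings, filters, thresholds, added pseudogene reads and, chosen after seeing the data, the median transcript length. Python 3.11.15, pandas 2.3.3, scipy 1.17.1 and Biopython 1.88 were used.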

Additional observations from a re-analysis of the deposited data

How the results depend on the processing

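None of the 76 values of single members under the alternatives had the opposite sign; 59 lay within the counting interval of the reported value and 17 outside it. PRDX5 stood between 0.55 and 0.71 in log2 ratio and PRDX6, the nearest to 0 of the others, between -0.22 and -0.09. The count of members at least 1.5-fold higher was 0 with a pseudocount of 5 and 0 at 2-fold, and the count lower was 6 at a log2 ratio of 0.32; the higher pseudocount adds the same amount to both libraries and so draws ratios towards 1. With FPKM scaled to equal sums, which shifted the median of measured genes by 0.11, the median of the 10 members was -0.22. The measured genes at least 1.5-fold higher and lower numbered 289 and 247. They were 159 and 164 at a mean FPKM of at least 5, 697 and 603 over all gene classes, 498 and 465 with a pseudocount of 0.1, 103 and 74 with a pseudocount of 5, and 436 and 121 with equal FPKM sums, where 78.3% of the genes past 1.5-fold were higher, against 53.9% as reported. No paired analysis was possible because each group has 1 library. Replicates could not be left out for the same reason, and depth limits statements on genes with few reads, such as SRXN1.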
